A study of Mus musculus with 16 samples.

Results

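The immediate early genes are a group of 10 genes chosen by name: the AP-1 subunits Fos, Fosb, Jun, Junb and Jund, the related factor Atf3, the zinc finger factor Egr1, the nuclear receptor Nr4a1, and Ier2 and Ier3. They were taken by gene symbol from count tables that list 24421 genes, and all 10 symbols were found. Of these, 9 passed the filter on low counts and were tested among 14514 genes. Fosb did not pass it. The counts come from RNA sequencing of 16 libraries from the mouse head at embryonic day 8.5, 4 libraries in each of 4 groups. The embryos were wild type or homozygous for a null allele of Ift88, which encodes a protein of the transport particle inside cilia. They were of generation 3 of families kept on a moderate diet with 2 ppm folic acid or an enriched diet with 10 ppm. The groups are called moderate-fed wild type, moderate-fed mutant, enriched-fed wild type and enriched-fed mutant. The dissected tissue reached from the first pharyngeal arch to just above the ear vesicle. Which exons the null allele lacks, and whether embryos were pooled or shared a litter, is not known from the labels, so the p-values here measure only the spread between these libraries.

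Immediate early genes are switched on within minutes of a growth signal or a stress, from factors that already sit on their promoters and without new protein synthesis. Most encode transcription factors. Members of the Fos family pair with members of the Jun family to form AP-1, which binds DNA as a dimer, and the messenger RNAs decay quickly once the signal ends. In the embryo they are known as readouts of kinase signalling and, in dissected tissue, of handling.

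Levels are given in CPM, the read count scaled to a common library total with TMM factors. Each library held between 19249433 and 44267434 reads assigned to genes. Ift88 served as the check of the labels. It lay at 2.01 to 8.61 CPM in the 8 mutants and at 9.30 to 20.9 CPM in the 8 wild type libraries. Moderate-fed wild type replicate 2 was the lowest of these at 9.30 CPM, while the others lay at 17.9 to 20.9 CPM. Among the mutants, enriched-fed replicate 2 was the highest at 8.61 CPM, followed by moderate-fed replicate 2 at 6.44 CPM. The other mutants lay at 2.01 to 5.25 CPM. The check is therefore less clear for moderate-fed wild type replicate 2 and for enriched-fed mutant replicate 2. The labelled sex was contradicted by Xist and Y-linked counts in 3 libraries, 1 moderate-fed wild type (replicate 2) and 2 moderate-fed mutants (replicates 1 and 2). Moderate-fed mutant replicate 3 stood apart from the other mutants in the immediate early genes too. Values without these libraries are given beside the genotype results on the moderate diet. Markers of neuroepithelium, mesenchyme and surface ectoderm were present in all 16 libraries, with the neural factor Sox2 at 216 to 300 CPM, the mesenchymal factor Twist1 at 66.5 to 95.3 CPM and the epithelial Epcam at 33.7 to 49.5 CPM.

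Of the 9 genes tested, 4 rose in Ift88 mutants on the moderate diet and 6 on the enriched diet, where 1 fell. Of all genes tested, 7.62% passed in either direction on the moderate diet and 31.2% on the enriched diet. Ier3, a small protein of cell survival signalling, was 14.6-fold higher in mutants on the moderate diet and 22.0-fold higher on the enriched diet. Atf3, a stress-induced partner of the AP-1 family, was 3.22-fold and 3.73-fold higher. Egr1, Nr4a1 and Fos rose on the enriched diet, by 2.16-fold, 1.64-fold and 2.35-fold. Junb rose on both diets, by 1.52-fold and 1.41-fold, and Jund on the moderate diet, by 1.34-fold. These calls lay near the threshold and were lost in some of 26 alternatives (10 and 7 for Junb, 9 for Jund). Jun did not pass on either diet, and Ier2 was 1.25-fold lower in mutants on the enriched diet.

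On the moderate diet 4 of the 9 tested genes passed (Ier3, Atf3, Junb and Jund), all higher in mutants, where 7.62% of all genes tested passed (edgeR, p under 0.05 after Benjamini-Hochberg adjustment), 4.79% as higher and 2.83% as lower. On the enriched diet 7 of 9 passed, 6 higher (Ier3, Atf3, Egr1, Nr4a1, Fos and Junb) and 1 lower (Ier2), where 31.2% of all genes tested passed, 14.4% as higher and 16.8% as lower. The median log2 fold change of the 9 genes was 0.43 on the moderate diet and 0.71 on the enriched diet, beside -0.01 over all genes on each. All 4 mutants lay above all 4 wild type libraries of their diet in 5 genes on the moderate diet and 4 on the enriched diet, and below them in 0 and 1, where the groups of 15.6% and 23.7% of all genes did not overlap, 8.5% and 11.2% as higher and 7.06% and 12.5% as lower. Each of the 9 had at least 10 counts in every library, so none passed the filter through the mutants alone. Without moderate-fed mutant replicate 3, 6 genes passed on the moderate diet, where 2107 of all genes did, against 1106 in the main fit. With the 3 libraries of contradicted sex left out, 2 passed, Ier3 and Atf3, beside 105 of all genes. Without those 3 libraries, only replicates 3 and 4 of the moderate-fed mutants remained, and replicate 3 stood apart from the other mutants. In that fit the moderate diet log2 fold change was 3.40 for Ier3 (edgeR adjusted p = 0.0120) and 1.501 for Atf3 (0.0472), while Junb went from 0.60 to 0.29 (0.716), Jund from 0.43 to 0.22 (0.624) and Egr1 from 0.72 to 0.35 (0.832). Nr4a1 was then at 0.31, Fos at 0.32, Jun at 0.22 and Ier2 at -0.23, none of which passed. On the enriched diet 6 passed without those 3 libraries, because Junb was then at an edgeR adjusted p of 0.0552. Of all genes, 3825 then passed on that diet, against 4524 in the main fit. In bulk tissue, more cells that make a transcript and more transcript per cell cannot be told apart.

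**Figure D1:**
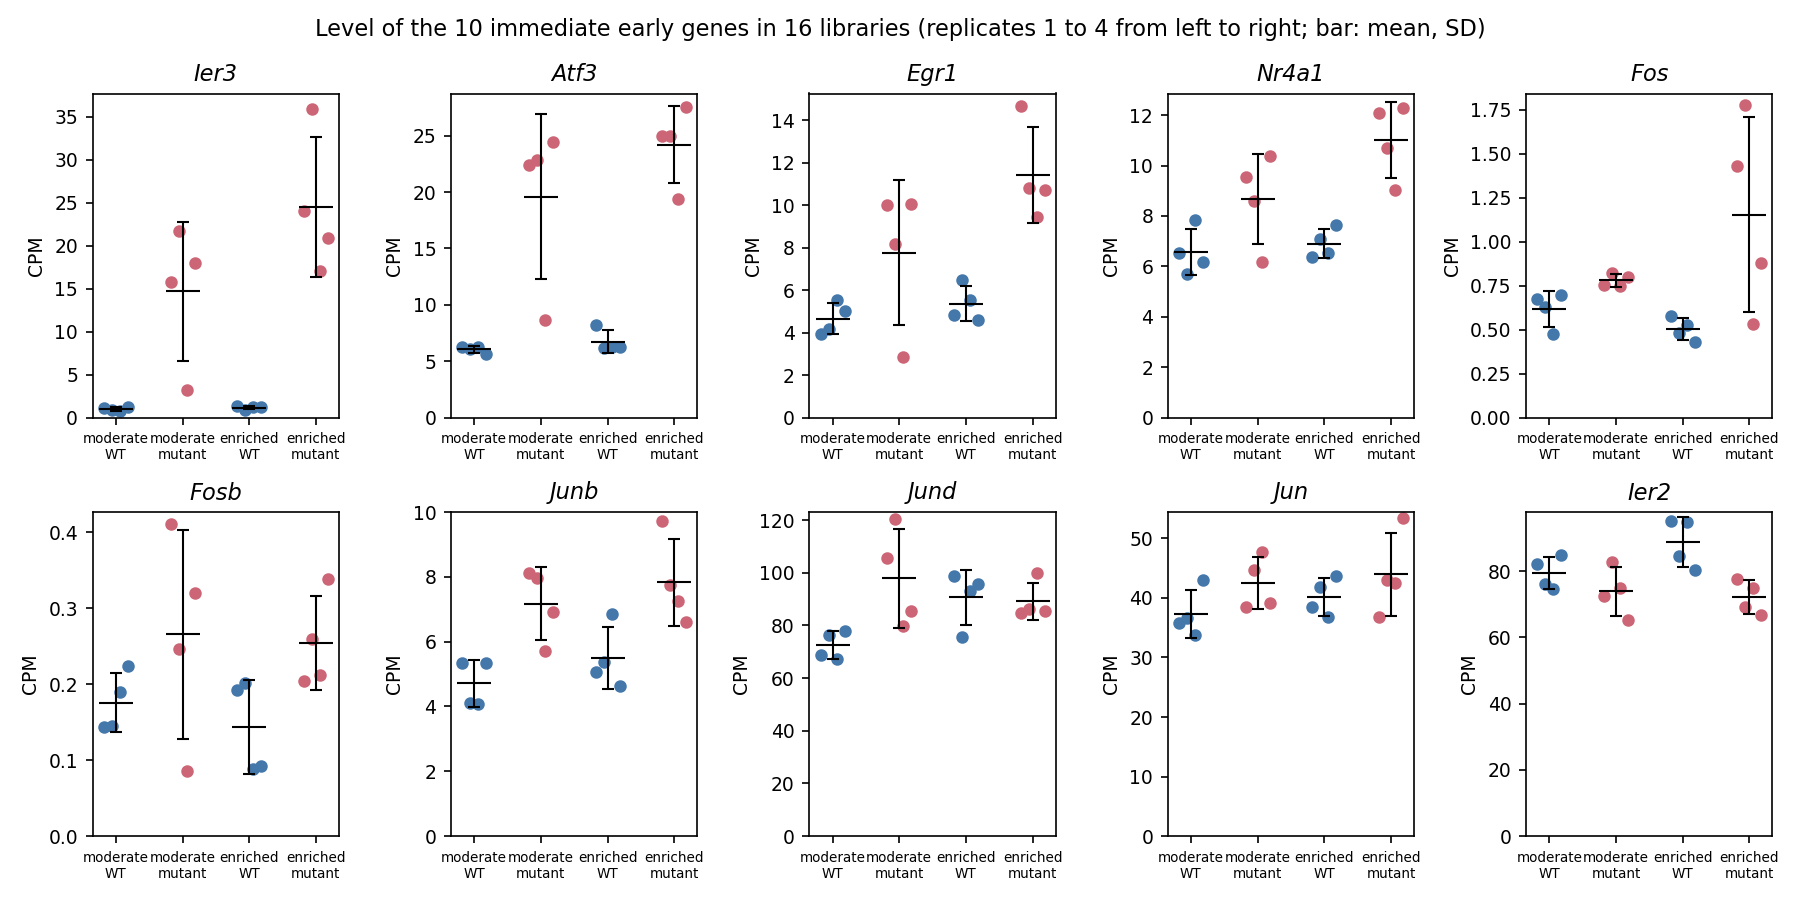
Level of each of the 10 genes in CPM (linear axes from 0) in the 4 groups, with 1 point per library, replicates 1 to 4 from left to right, and the mean and SD as bars. Ier3 and Atf3 are higher in all 8 mutants than in all 8 wild type libraries, with moderate-fed mutant replicate 3 the lowest mutant, while Jun and Ier2 stay within a narrow band.

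Promoter sequence is shown for 4 genes: Ier3 and Atf3, which differed most between genotypes, Nr4a1, which rose on the enriched diet, and Fos, the founding member, which stayed at a very low level. The RefSeq promoter table of build GRCm38.p6, the assembly behind mm10, held 8 of the 10 genes with a sequence that could be shown. Each stretch covers the 250 bases before the RefSeq start, 5′ to 3′ on the gene's own strand, and capitals mark motif matches on either strand. They lie at chr17:35821463-35821712 (plus strand) for Ier3, chr1:191183334-191183583 (minus strand) for Atf3, chr15:101266596-101266845 (plus strand) for Nr4a1 and chr12:85473640-85473889 (plus strand) for Fos. The Atf3 and Nr4a1 windows lie inside the GENCODE genes, which reach from 191170296 to 191218039 and from 101254269 to 101274795. The Ier3 window runs past the GENCODE start at 35821684. Windows at the GENCODE starts of these 3 genes were not searched.
Ier3: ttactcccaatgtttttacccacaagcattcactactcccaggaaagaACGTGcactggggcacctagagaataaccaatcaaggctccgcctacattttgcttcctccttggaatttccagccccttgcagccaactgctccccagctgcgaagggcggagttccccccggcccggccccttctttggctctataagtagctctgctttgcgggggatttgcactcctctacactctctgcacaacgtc
Atf3: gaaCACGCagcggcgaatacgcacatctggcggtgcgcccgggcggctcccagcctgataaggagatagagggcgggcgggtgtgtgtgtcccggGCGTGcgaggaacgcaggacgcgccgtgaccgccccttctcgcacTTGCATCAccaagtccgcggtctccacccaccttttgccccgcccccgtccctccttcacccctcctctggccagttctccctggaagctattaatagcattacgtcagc
Nr4a1: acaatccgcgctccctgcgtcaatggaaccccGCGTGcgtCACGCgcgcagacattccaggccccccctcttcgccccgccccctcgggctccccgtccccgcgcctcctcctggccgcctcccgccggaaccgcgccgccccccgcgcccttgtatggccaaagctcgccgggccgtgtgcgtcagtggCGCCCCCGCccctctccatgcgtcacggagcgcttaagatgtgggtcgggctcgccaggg
Fos: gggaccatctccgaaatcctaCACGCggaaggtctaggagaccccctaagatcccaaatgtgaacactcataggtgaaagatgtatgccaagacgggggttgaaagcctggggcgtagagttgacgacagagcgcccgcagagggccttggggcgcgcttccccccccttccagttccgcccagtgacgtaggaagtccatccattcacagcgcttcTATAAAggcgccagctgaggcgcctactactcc

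The motifs searched, on both strands, were 7: the serum response element (CArG box), the cAMP response element TGACGTCA, the AP-1 site (TGACTCA or TGAGTCA), the core of the hypoxia response element (ACGTG or GCGTG), the C/EBP-ATF response element (TGATGCAA or TGATGAAA), the Egr site (GCGGGGGCG or GCGTGGGCG, the second of which contains a hypoxia core) and the TATA box TATAAA. Atf3 held the C/EBP-ATF element from base -110 to -103 before the start, a motif present in 1.64% of 32536 distinct windows of this length. Nr4a1 and Fosb held an Egr site, in Nr4a1 from -60 to -52, which is present in 3.09% of windows. Ier3 held 1 hypoxia core from -202 to -198, and 6 of the 8 genes held at least 1, but so did 38.8% of all windows. Fos held the TATA box from -33 to -28, present in 12.3% of windows. No CArG box, cAMP response element or AP-1 site was matched in the 8 windows, and these occur in 1.48%, 1.56% and 4.45% of all windows. Sites outside the windows, and sites that differ from the searched letters, were not looked for. Egr1 was not among the 8 genes with a window. The lack of a match therefore does not show that these promoters lack such sites. A match describes letters in this window and is not a measured binding site.

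Ier3 (chromosome 17, 35821684 to 35822923 of mm10, plus strand) is induced by growth factors and stress and acts on cell survival. Its level in moderate-fed wild type replicates 1 to 4 was 1.06, 0.823, 0.756 and 1.219 CPM, and in moderate-fed mutants 15.7, 21.7, 3.18 and 18.04 CPM. With the enriched diet, wild type held 1.29, 0.925, 1.20 and 1.19 CPM, and enriched-fed mutants 24.0, 36.0, 17.1 and 20.9 CPM. Every mutant thus lay above every wild type library, and moderate-fed mutant replicate 3 lay far below the other 7 mutants. In the fit, the log2 fold change was 3.86 ± 0.46 (SE) on the moderate diet (edgeR, adjusted p = 9.52e-05) and 4.46 ± 0.46 with enriched feeding (adjusted p = 2.62e-05). The call held in all 26 alternatives on each diet, with log2 fold changes of 3.40 to 4.21 and 4.22 to 4.60. The wild type values rest on 16 to 49 counts per library.

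Ier2 (chromosome 8, 84661331 to 84662852, minus strand) is a nuclear protein induced by the same growth signals, and here it was among the most abundant of the group. It stood at 82.3, 76.1, 74.5 and 84.8 CPM in moderate-fed wild type replicates 1 to 4 and at 72.6, 82.8, 75.0 and 65.1 CPM in moderate-fed mutants, which overlapped. On 10 ppm, wild type held 95.3, 84.6, 94.9 and 80.3 CPM, and enriched-fed mutants 77.7, 69.0, 75.0 and 66.7 CPM, with every mutant below every wild type library. Its log2 fold change was -0.10 ± 0.08 (SE) on the moderate diet (edgeR adjusted p = 0.478, 95% interval -0.28 to 0.07) and -0.32 ± 0.08 with enriched feeding (adjusted p = 0.0100). Without enriched-fed wild type replicate 3 the adjusted p was 0.0509. Ier2 and Ier3 share a name from their early induction, but on the enriched diet Ier3 rose and Ier2 fell.

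Atf3 (chromosome 1, 191170296 to 191218039, minus strand) is a basic leucine zipper factor that pairs with Jun proteins and is induced by many stresses, including shortage of amino acids. Moderate-fed wild type replicates 1 to 4 held 6.29, 6.10, 6.24 and 5.60 CPM, and moderate-fed mutants 22.4, 22.9, 8.65 and 24.4 CPM. Among enriched-fed embryos, wild type held 8.24, 6.15, 6.28 and 6.28 CPM, and enriched-fed mutants 24.98, 24.97, 19.4 and 27.5 CPM. The groups did not overlap on either diet, although moderate-fed mutant replicate 3 came within reach of enriched-fed wild type replicate 1. On the log2 scale the change was 1.69 ± 0.23 (SE, edgeR adjusted p = 0.000357) on the moderate diet and 1.90 ± 0.24 (0.000113) with enriched feeding, and the call held in all 26 alternatives on each.

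Egr1 encodes a zinc finger factor that answers to kinase signalling through the serum response factor. It stood at 3.94, 4.16, 5.53 and 5.03 CPM in moderate-fed wild type and at 10.0, 8.16, 2.84 and 10.1 CPM in moderate-fed mutants. In this group replicate 3 lay below all 4 wild type libraries and the other 3 mutants above them. With the enriched diet, wild type held 4.84, 6.47, 5.55 and 4.61 CPM, and enriched-fed mutants 14.7, 10.8, 9.44 and 10.7 CPM, without overlap. Its fitted log2 change was 0.72 ± 0.29 (SE) on the moderate diet (edgeR adjusted p = 0.142) and 1.11 ± 0.29 with enriched feeding (adjusted p = 0.00932). On the moderate diet Egr1 passed in 1 of 26 alternatives, the fit without moderate-fed mutant replicate 3. It was then at 1.02 (edgeR adjusted p = 0.00120, in a range of 0.00120 to 0.832 over the alternatives). That replicate is low in Egr1, so leaving it out raises the change, and the pass is not independent support.

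Nr4a1 (chromosome 15, 101254269 to 101274795, plus strand) is an orphan nuclear receptor induced early in many cell types. Moderate-fed wild type held 6.53, 5.71, 7.84 and 6.17 CPM, and moderate-fed mutants 9.53, 8.61, 6.19 and 10.4 CPM, with replicate 3 inside the wild type range. On 10 ppm, wild type held 6.37, 7.08, 6.55 and 7.63 CPM and enriched-fed mutants 12.1, 10.7, 9.02 and 12.3 CPM, without overlap. Mutants differed from wild type by a log2 fold change of 0.40 ± 0.15 (SE, edgeR adjusted p = 0.112) on the moderate diet and 0.71 ± 0.15 (0.00278) with enriched feeding. As for Egr1, the moderate diet value passed in 1 of 26 alternatives, the fit without moderate-fed mutant replicate 3. It was then at 0.54 (edgeR adjusted p = 0.0138, in a range of 0.0138 to 0.705 over the alternatives). That replicate is low in Nr4a1 too, so this pass is not independent support either.

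Fos and Fosb gave few counts in these libraries. Fos (chromosome 12, 85473890 to 85477273, plus strand) gave 10 to 28 counts per library in moderate-fed wild type and 20 to 26 in moderate-fed mutants, or 0.672, 0.629, 0.473 and 0.697 CPM against 0.752, 0.820, 0.745 and 0.8001 CPM. Every moderate-fed mutant was thus above every moderate-fed wild type library, by a small margin. Among enriched-fed embryos, wild type held 0.575, 0.482, 0.526 and 0.427 CPM, and enriched-fed mutants 1.43, 1.77, 0.530 and 0.881 CPM. Replicate 3 of these mutants, at 10 counts, lay inside the wild type range, while replicates 1 and 2 lay furthest above it. In the fit, the log2 fold change was 0.31 ± 0.31 (SE) on the moderate diet (edgeR adjusted p = 0.589, 95% interval -0.34 to 0.97) and 1.23 ± 0.31 with enriched feeding (adjusted p = 0.00779). The enriched diet call held in the 25 alternatives in which Fos could be tested, with adjusted p of 0.00131 to 0.0442. Summed over the group, Fos gave 56 counts in enriched-fed wild type (exact Poisson 95% interval 42.3 to 72.7) and 140 in enriched-fed mutants (118 to 165), intervals that cover counting error only.

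Fosb (chromosome 7, 19302696 to 19310051, minus strand), the close relative of Fos, gave 3 to 12 counts per library. Its sums were 19, 29, 15 and 29 counts in moderate-fed wild type, moderate-fed mutants, enriched-fed wild type and enriched-fed mutants, with exact Poisson 95% intervals of 11.4 to 29.7, 19.4 to 41.6, 8.40 to 24.7 and 19.4 to 41.6. When no filter on low counts was used, its log2 fold change was 0.50 ± 0.48 (SE, edgeR adjusted p = 0.641) on the moderate diet and 0.97 ± 0.50 (0.183) with enriched feeding. A difference between the groups was not detectable at this depth.

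The 3 Jun genes encode the other arm of AP-1 and differed among themselves. Junb (chromosome 8, 84974484 to 84978718, minus strand), which often restrains Jun, stood at 5.33, 4.12, 4.06 and 5.35 CPM in moderate-fed wild type and 8.13, 7.95, 5.70 and 6.92 CPM in moderate-fed mutants, without overlap. With the enriched diet, wild type held 5.08, 5.39, 6.87 and 4.64 CPM and enriched-fed mutants 9.72, 7.75, 7.27 and 6.61 CPM, where the lowest mutant lay below the highest wild type library. On the log2 scale the change was 0.60 ± 0.17 (SE, edgeR adjusted p = 0.0386) on the moderate diet and 0.49 ± 0.17 (0.0369) with enriched feeding. Both calls lay near the threshold: they were lost in 10 of 26 alternatives on the moderate diet, among them each fit that left out 1 moderate-fed library other than mutant replicate 3, and in 7 of 26 on the enriched diet (among them without wild type replicate 1, 2 or 4, or mutant replicate 1 or 2). Exons of Junb share 173 bases with Prdx2 on the opposite strand, a gene with 9215 to 24158 counts per library, and the library kit keeps no strand. The log2 fold change of Prdx2 was -0.06 ± 0.11 (adjusted p = 0.803) and -0.34 ± 0.11 (adjusted p = 0.0304), and its part in the level of Junb was not tested.

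Jund (chromosome 8, 70698949 to 70700616, plus strand), the steadily expressed member of the family, stood at 68.6, 76.4, 67.3 and 78.0 CPM in moderate-fed wild type and at 106, 120, 79.8 and 85.5 CPM in moderate-fed mutants. Those groups did not overlap, but replicate 3 of the mutants lay just above the highest wild type library. On 10 ppm, wild type held 98.7, 75.5, 92.9 and 95.7 CPM and enriched-fed mutants 84.8, 86.4, 99.9 and 85.4 CPM. Its fitted log2 change was 0.43 ± 0.12 (SE, edgeR adjusted p = 0.0364) on the moderate diet, a call lost in 9 of 26 alternatives (among them without wild type replicate 1, 2 or 3, or mutant replicate 1 or 2), and -0.01 ± 0.12 (adjusted p = 0.955, 95% interval -0.27 to 0.25) on the enriched diet. Exons of Jund share 877 bases with Gm11175 on the opposite strand, which is not among the genes counted.

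Jun (chromosome 4, 95049034 to 95052222, minus strand), the classic partner of Fos, passed on neither diet. It stood at 35.9, 36.6, 33.7 and 43.1 CPM in moderate-fed wild type, 38.5, 44.7, 47.6 and 39.2 CPM in moderate-fed mutants, 38.5, 41.9, 36.8 and 43.7 CPM in enriched-fed wild type and 36.8, 43.1, 42.5 and 53.4 CPM in enriched-fed mutants. All groups overlapped. Mutants differed from wild type by a log2 fold change of 0.19 ± 0.11 (SE, edgeR adjusted p = 0.347, 95% interval -0.05 to 0.43) on the moderate diet and 0.12 ± 0.11 (adjusted p = 0.426, 95% interval -0.12 to 0.37) on the enriched diet. It was also the one gene of the group for which moderate-fed mutant replicate 3 held the highest level of its group.

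**Figure D2:**
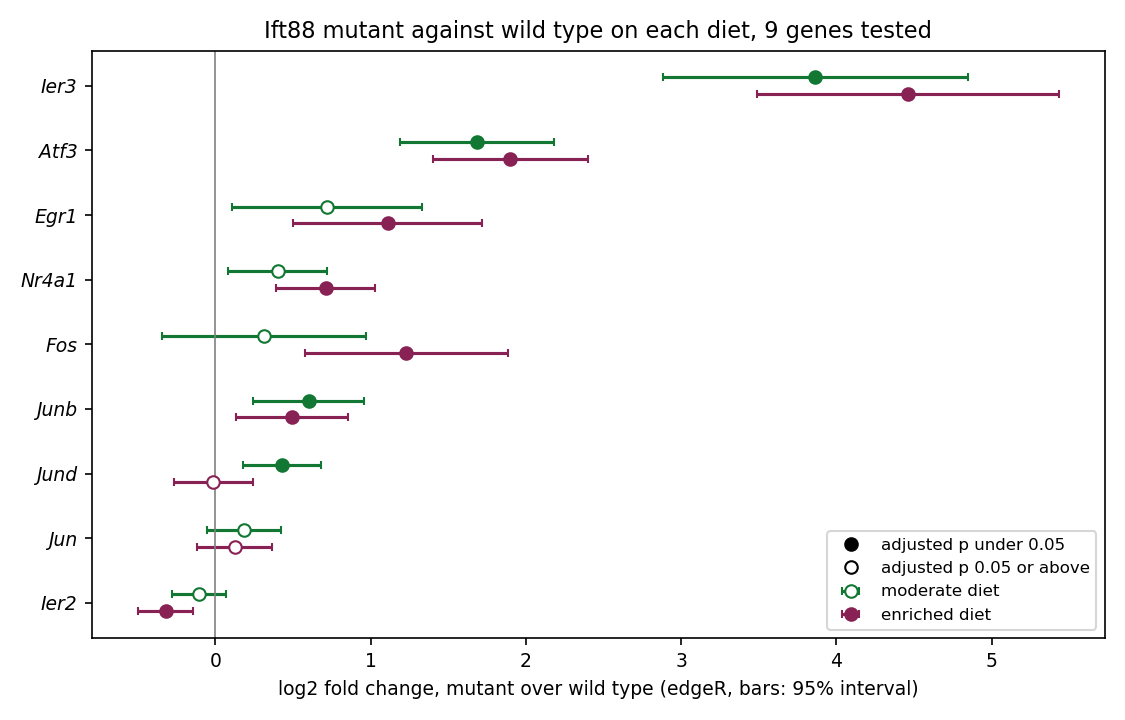
Log2 fold change of mutant over wild type for the 9 genes tested, with 95% intervals, on the moderate diet (green) and the enriched diet (purple). Filled points passed an adjusted p of 0.05, which 4 genes did on the moderate diet and 7 on the enriched diet, and Ier2 is the only one of them below 0.

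Levels can be set against each other only per length of transcript, here as CPM per kilobase of the merged exons in GENCODE vM21. In moderate-fed wild type the order was Ier2 (52.2 ± 3.23 SD, n = 4), Jund (43.5 ± 3.24), Jun (11.7 ± 1.27), Atf3 (2.81 ± 0.147), Junb (2.05 ± 0.314), Nr4a1 (1.87 ± 0.261), Egr1 (1.04 ± 0.166), Ier3 (0.852 ± 0.189), Fos (0.263 ± 0.0428) and Fosb (0.0281 ± 0.00615) CPM per kilobase. Junb and Nr4a1, and Egr1 and Ier3, did not differ beyond their spread. Ier3 went from place 8 in both wild type groups to place 4 in moderate-fed mutants (12.97 ± 7.12) and place 3 in enriched-fed mutants (21.7 ± 7.21). In moderate-fed mutants it did not differ beyond its spread from Jun (13.3 ± 1.38) or Atf3 (9.09 ± 3.41). The Jun genes together came to 52.7 to 62.6 CPM per kilobase in moderate-fed wild type, and Fos and Fosb together to 0.231 to 0.332. In every group the Jun side of AP-1 was thus far more abundant in messenger RNA than Fos and Fosb, and Jund made up 72.3 to 80.6% of the Jun sum over the 16 libraries. The RefSeq start of Jund lies before the GENCODE one, so its length, and with it this share, depends on the gene model.

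Moderate-fed mutant replicate 3 was below the other 3 mutants of its group in 8 of the 10 genes, the exceptions being Jun and Ier2, and inside the wild type range of its diet in 2, Ier2 and Nr4a1. For Fos the margin was small (0.745 against 0.752 to 0.820 CPM), and Fosb rests on 3 counts there. The share of all genes that were lowest of the group in this library was not measured. Its score over the 9 tested genes, the mean of log2 CPM centred on the 16 libraries, was -0.27, between the other 7 mutants at 0.39 to 0.75 and the 8 wild type libraries at -0.60 to -0.34. The same library had a low score for genes induced by low oxygen (-0.30, other mutants 0.93 to 1.40, wild type -1.25 to -0.58) and for targets of the stress factor ATF4 (-0.81, other mutants 0.82 to 1.37, wild type -1.01 to -0.59). It had the highest score of all 16 libraries for heat shock and handling genes (0.53, other mutants -0.31 to 0.23, wild type -0.23 to 0.47), and its erythroid score of 0.55 lay above the other mutants (-1.64 to 0.22) and inside the wild type range (-0.48 to 1.46). The part of these gene groups in its low levels of immediate early genes was not tested. This library was singled out in part for those low levels, so fits without it are not independent support for a rise. Without this library the log2 fold change on the moderate diet was 4.21 for Ier3, 1.94 for Atf3, 0.72 for Junb and 0.52 for Jund, which all passed (edgeR adjusted p of 0.0104 or less). For Fos, Jun and Ier2, which did not pass, it was 0.34, 0.13 and -0.10.

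**Figure D3:**
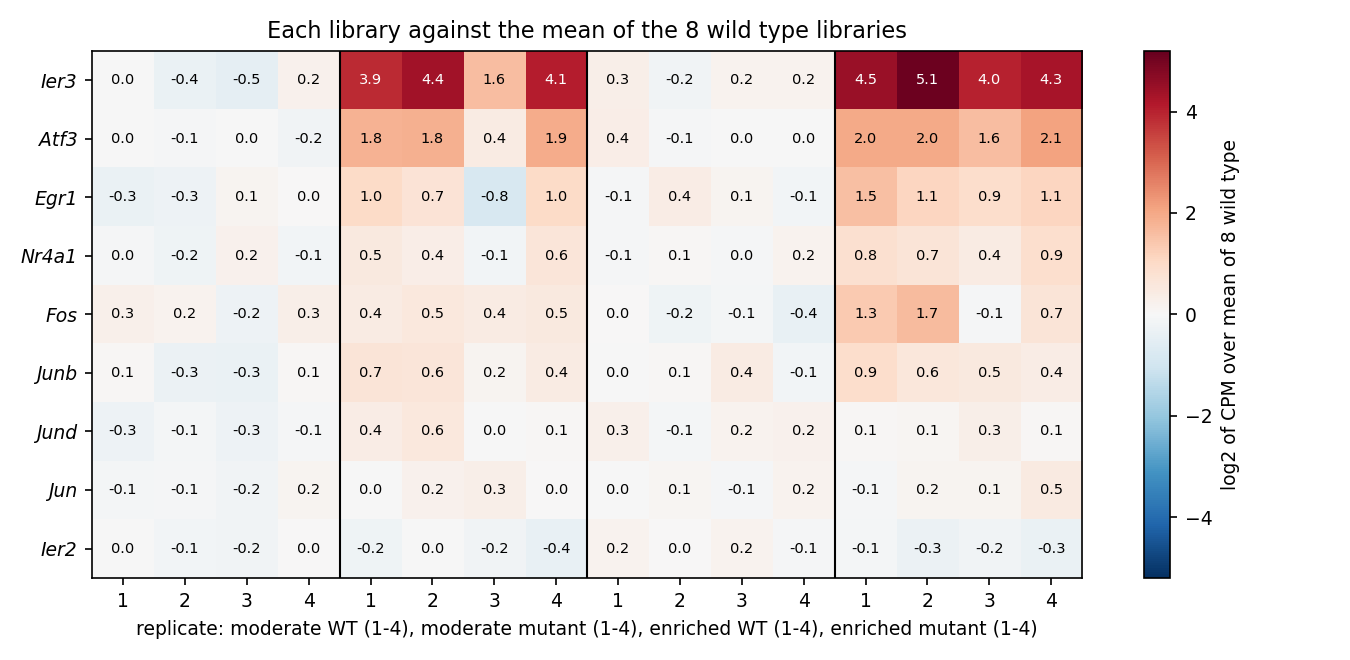
Log2 of the CPM in each library over the mean of the 8 wild type libraries, for 9 genes (rows) and 16 libraries (columns by group and replicate), with the value printed in each cell. Ier3, Atf3, Egr1 and Nr4a1 are high in 7 mutants and lower in moderate-fed mutant replicate 3, while Jun and Ier2 stay within 0.5 of 0.

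How the genes varied within groups was described by the deviation of log2 CPM from the mean of each library's own group, over 16 libraries. Ier3 and Atf3 deviated together (Pearson r = 0.88), as did Atf3 and Egr1 (0.82), Egr1 and Nr4a1 (0.79) and Ier3 and Egr1 (0.77). The values depended on 1 library: without moderate-fed mutant replicate 3, over 15 libraries, they were 0.32, 0.03, 0.55 and -0.15. Junb and Ier2 had r = 0.59, and 0.70 without that library. Of the 36 pairs, Fos and Ier3 had the highest r without it (0.81, against 0.40 with it), and the lowest were Jund with Nr4a1 (-0.65, against -0.06) and Jund with Egr1 (-0.60, against 0.22). Over all genes tested with a mean of at least 5 CPM, leaving out gene models without a given name, Ier3 was most like the glycogen regulator Ppp1r3c (0.98), Zfp395 (0.98) and the glucose-6-phosphate transporter Slc37a4 (0.97), which stood at 0.87, 0.93 and 0.88 without that library. Atf3 was most like the secreted Stc2 (0.98), the glycolytic regulator Pfkfb3 (0.97) and the amino acid transporter Slc7a3 (0.97), at 0.87, 0.86 and 0.86 without it. Fos was most like Trappc9 (0.89), Plek (0.86) and Ap3m2 (0.84), and Nr4a1 like Hps3 (0.92), Gramd4 (0.91) and Foxl2os (0.90). The genes named here were picked as those with the highest r among all compared, so high values come in part from that choice. Fos rests on 10 to 63 counts per library. The points share their library and its depth, and these values are descriptions without a test.

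The diets were compared within each genotype, using the same libraries as above. None of the 9 passed in wild type or in mutants (edgeR), where 0% of all genes tested passed in either comparison and 354 and 1565 had an unadjusted p under 0.05. At an unadjusted p under 0.05, 2 genes stood out in wild type, Jund (log2 fold change of enriched over moderate 0.29 ± 0.13 SE, adjusted p = 0.967) and Ier2 (0.20 ± 0.09, adjusted p = 0.967), and 1 in mutants, Nr4a1 (0.32 ± 0.15, adjusted p = 0.458). DESeq2 and limma-voom also called none of the 9. Ier3 in mutants differed by 0.67 between the diets with a 95% interval of -0.12 to 1.47, and Fos by 0.58 (-0.05 to 1.21), so changes of more than 2-fold are not outside these intervals.

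Whether the loss of Ift88 had another effect on the enriched than on the moderate diet was tested as the difference between the 2 genotype effects. None of the 9 genes passed, as 0% of all genes did (edgeR), and 1 of them had an unadjusted p under 0.05, as had 1401 of all genes. That gene was Jund, with a difference, enriched minus moderate, of -0.44 ± 0.17 on the log2 scale (SE, adjusted p = 0.501). For Fos the difference was 0.92 ± 0.44 (adjusted p = 0.501, 95% interval -0.02 to 1.85) and for Egr1 0.39 ± 0.41 (adjusted p = 0.683). The larger number of genes past the threshold on the enriched diet is therefore not shown to be a difference between the diets.

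A list of 43 other immediate early genes from general knowledge, of which 40 were tested, was measured beside them. On the moderate diet 6 rose and 1 fell, where 4.79% of all genes tested rose and 2.83% fell. On the enriched diet 13 rose and 3 fell, where 14.4% of all genes tested rose and 16.8% fell. The median log2 fold change of the 40 was 0.20 and 0.16. Of the 40, 7 passed on both diets and 9 on the enriched diet alone, a difference that was not tested. Fosl2, a further Fos family subunit, went from 4.73 ± 0.548 (SD, n = 4) to 13.2 ± 3.88 CPM on the moderate diet and from 5.42 ± 0.354 to 14.7 ± 2.60 CPM on the enriched diet, with a log2 fold change of 1.47 ± 0.19 (SE, edgeR adjusted p = 0.000250) and 1.48 ± 0.19 (adjusted p = 0.000160). Maff, a small Maf factor without an activation domain, rose by 1.28 ± 0.19 and 1.46 ± 0.19. Tiparp (0.42 on the moderate and 0.49 on the enriched diet) and the Krüppel-like factor Klf6 (0.49 on each) rose on both diets, and the survival factor Mcl1 fell on both, by 0.28 and 0.48. The clock gene Per1 rose on the enriched diet (0.74) and was at 0.34 on the moderate diet (edgeR adjusted p = 0.0536). The other falls on the enriched diet, named after their values were seen, were Klf2 (-1.03), a factor of endothelium under flow, and Trib1 (-0.48).

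**Figure D4:**
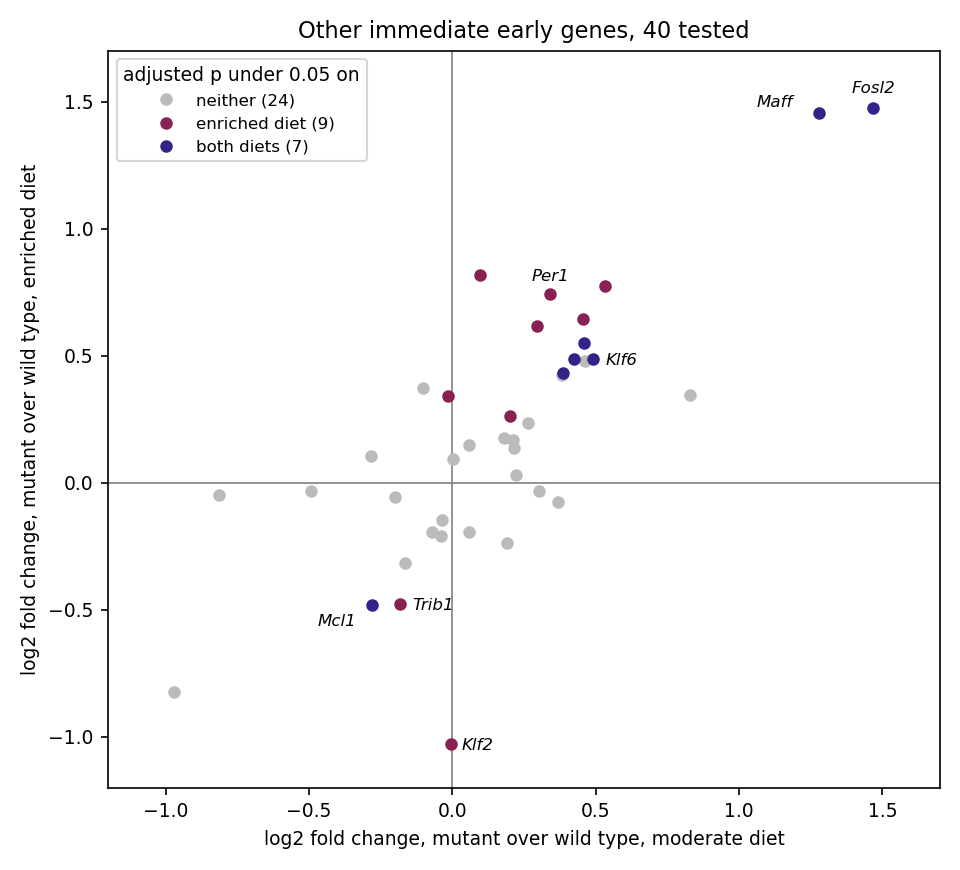
Log2 fold change of mutant over wild type for the 40 other immediate early genes tested, on the moderate diet (horizontal axis) and the enriched diet (vertical axis), coloured by the diets on which they passed. Fosl2 and Maff lie apart at the upper right, and most of the others lie within 0.5 of 0 on both axes.

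Of 19 tested factors with a leucine zipper that can pair with AP-1 subunits, 3 rose and none fell on the moderate diet, and 10 rose and 2 fell on the enriched diet. Jdp2, a repressor that binds AP-1 sites, rose from 5.35 ± 0.833 (SD, n = 4) to 14.9 ± 6.21 CPM and from 5.86 ± 0.427 to 20.7 ± 5.11 CPM, by 1.44 and 1.88 on the log2 scale. Cebpb rose by 1.04 and 1.74 and Bach2 by 0.47 and 0.73. Of 23 kinases and factors upstream of the immediate early genes, 1 rose on the moderate diet and 3 rose and 3 fell on the enriched diet, with a median of 0.02 and 0.07. Over all genes tested 4.79% rose and 2.83% fell on the moderate diet, and 14.4% rose and 16.8% fell on the enriched diet. The counts of the 23 upstream genes are near these shares. The rises among the 19 leucine zipper factors lie above them on both diets. Map2k1, which activates the ERK kinases, rose by 0.57 and 0.46, and its relative Map2k2 fell by 0.58 on the enriched diet.

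Other gene groups moved beside Ier3 and Atf3. Of 20 genes of low oxygen and glycolysis all 20 rose on each diet, with medians of 1.82 and 1.88, among them the peptide hormone gene Adm (5.37 on each diet). Of 12 ATF4 stress genes 9 and 10 rose and none fell, with medians of 1.32 and 1.94, among them the asparagine synthetase Asns (1.08 and 1.65). Among heat shock genes, which respond to handling and to unfolded protein, the counts were lower: of 14 tested, 1 rose on the moderate diet, and 1 rose and 4 fell on the enriched diet, with medians of -0.02 and -0.19, where 7.62% and 31.2% of all genes tested passed. The gene that rose on both diets was the small heat shock protein gene Hspb1, by 1.65 and 1.04 on the log2 scale. Its means were low, at 0.255 and 0.856 CPM in moderate-fed wild type and mutants. In enriched-fed wild type and mutants they were 0.419 and 0.851 CPM. The cochaperone Dnaja1 fell by 0.56 on the enriched diet. The part of these gene groups in the levels of the immediate early genes was not tested.

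Markers of other cell types were measured in the same libraries. For the counts below, 4.79% of all genes tested rose and 2.83% fell on the moderate diet. The shares on the enriched diet were 14.4% and 16.8%. Erythroid markers summed to 2409 to 6368 CPM in moderate-fed wild type, 1224 to 3310 in moderate-fed mutants, 1477 to 3746 in enriched-fed wild type and 705 to 3551 in enriched-fed mutants. None of the 8 tested rose, 1 fell on the moderate diet and 2 on the enriched diet, and adult Hba-a1 was at 0 in all 16 libraries. Endothelial markers summed to 339 to 441 CPM over the moderate diet libraries and 354 to 417 over the enriched diet libraries, with 2 of 8 up on the moderate diet and 2 up and 4 down on the enriched diet. Macrophage markers summed to at most 8.01 CPM in any group and were lowest in moderate-fed mutants (0.820 to 2.96), where 2 of the 3 tested fell, with Ptprc at 0 in 5 libraries. Cardiomyocyte markers summed to 5.42 to 8.45 CPM in moderate-fed wild type, 3.14 to 7.16 in moderate-fed mutants, 6.43 to 8.28 in enriched-fed wild type and 3.02 to 6.14 in enriched-fed mutants, so that the enriched-fed groups did not overlap, although none of the 6 tested passed on either diet, with Nkx2-5 at 0 in 8 libraries. Markers of yolk sac endoderm and of decidua were low but reached 129.8 CPM in enriched-fed mutant replicate 4 and 194 CPM in replicate 3. The part of these cells in the results was not tested.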

How the data were processed

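Gene counts per library were deposited by the authors as whole numbers for 24421 genes. Per the submitters' processing notes, FastQC 0.11.5, TopHat2 2.1.1, SAMtools 1.8, HTSeq 0.9.1 and DESeq2 1.22.2 were used with build mm10. The counting mode, strand option and annotation are not given in the sources used here. Per the labels' protocols the library kit was TruSeq RNA version 2, which keeps no strand, so reads of overlapping genes on opposite strands can be mixed. Reads without a feature, 13.7 to 17.0% of uniquely placed reads, and the other summary lines were left out. Genes that reached 10 counts in 4 or more libraries, 14514 in all, were fitted over all 16 libraries with edgeR 4.0.16 (R 4.3.3), using TMM scaling, the quasi-likelihood test and the labelled sex as covariate, with Benjamini-Hochberg adjustment over all genes tested. A standard error is the log2 fold change divided by the root of the test's F value. Scores and deviations used log2 CPM with a prior count of 2. Alternatives were other scalings, filters and covariates, DESeq2 1.42.0, limma 3.58.1 (voom), a replicate block and leaving out libraries. All 10 genes are named. From every other list up to 4 past the threshold with the smallest p on either diet could be named. The members and lists were chosen with earlier results of these data known, so they are not independent evidence of direction. Promoter windows came from the RefSeq table, and gene positions and lengths from GENCODE vM21 on mm10.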

Additional observations from a re-analysis of the deposited data

Results flagged for a closer look

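In 3 of 40 checks of 1 gene in 1 group, 1 library lay far from the other 3 by Dixon's criterion, which chance alone meets in about 1 in 20 groups. Atf3 was at 8.65 CPM in moderate-fed mutant replicate 3, against 22.4 to 24.4 CPM in the other 3 mutants of that diet. Atf3 was also at 8.24 CPM in enriched-fed wild type replicate 1, against 6.15 to 6.28 CPM. Jund was at 99.9 CPM in enriched-fed mutant replicate 3, against 84.8 to 86.4 CPM.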

How the results depend on the processing

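Ier3 and Atf3 passed on both diets, and Egr1 and Nr4a1 on the enriched diet, in all 26 alternatives, and Fos on the enriched diet in the 25 that tested it. On the moderate diet 4 of the genes passed, but 2 with limma-voom, 2 when the 3 libraries of contradicted sex were left out, 2 with only the groups compared, and 2 to 6 when 1 library was left out: 2 without wild type replicate 1, 2 or 3 or mutant replicate 1 or 2, and 6 without mutant replicate 3. Over all genes 1106 passed there, against 105 without those 3 libraries, 719 with only the groups compared and 538 to 2107 when 1 library was left out. The fit without the 3 libraries kept only replicates 3 and 4 of the moderate-fed mutants. For diet, DESeq2 called 1 gene in wild type and 3 in mutants, and leaving out 1 library gave 0 to 1 in mutants. Same-numbered libraries correlated at -0.29 to 0.51, so no pairing by replicate number was assumed in the main fit. Whether some of them shared a litter or a batch cannot be told from these values. With the replicate number as a block, 3 of the genes passed on the moderate diet (Jund was lost) and 7 on the enriched diet, and 1453 and 4979 of all genes. Signs turned only where no test passed. Jund on the enriched diet was 0.00897 with median-of-ratios scaling, 0.00907 with DESeq2, 0.0173 without a filter, 0.0131 with sex from counts and 0.00727 with only the groups compared. Without the 3 libraries Nr4a1 for diet in wild type was -0.0309, Jund and Ier2 for diet in mutants 0.103 and 0.0911, and Junb for the difference 0.169. Ier2 for diet in mutants was 0.0088 with only the groups compared, and Atf3 for diet in wild type -0.00093 with limma-voom. Leaving out 1 library gave -0.0161 to 0.234 for Jun and -0.0914 to 0.0515 for Jund on the enriched diet. For diet in wild type it gave -0.0319 to 0.091 for Atf3, -0.0448 to 0.279 for Egr1, -0.159 to 0.257 for Ier3 and -0.0928 to 0.0895 for Nr4a1. For diet in mutants it gave -0.0762 to 0.0455 for Ier2 and -0.0512 to 0.182 for Jun, and for the difference -0.0355 to 0.385 for Atf3, -0.201 to 0.046 for Jun and -0.21 to 0.0471 for Junb. The cause was not tested. Fos and Fosb gave at most 63 and 12 counts per library.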
